A study of Mus musculus with 11 samples.

Results

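The genes described here act in mitosis or at the passage from G2 phase into mitosis. They were chosen by name and function, as 41 mitotic cyclins, kinases, kinesins, centromere and spindle genes. All 41 were found by Ensembl gene ID among the 53700 genes of the count table, and all 41 were among the 16639 genes with enough counts to test. The study sequenced RNA of ST-HSC, the short-term haematopoietic stem cell class, isolated by flow sorting from mouse bone marrow. The host mice, given as C57BL/6j, had been engrafted with bone marrow of an acute myeloid leukaemia (AML) that carried Flt3-ITD, an activating duplication in a growth factor receptor, and TET2 KO, the loss of an enzyme that demethylates DNA. Both lesions of the graft are shared by all 4 groups. Hosts were CXCL12 WT (titled Cre_neg) or CXCL12 KO (titled Cre_pos), and CXCL12 is the chemokine by which marrow stroma retains stem cells.

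The groups differ in host genotype and in treatment, which was vehicle or cytarabine, doxorubicin and quizartinib together. Cytarabine acts mainly on cells that copy their DNA, and quizartinib inhibits FLT3. The WT vehicle group holds the libraries 240, 253 and 265, the KO vehicle group 249 and 275, the WT treated group 252, 262 and 266, and the KO treated group 257, 263 and 276. Values per library are given below in that order. The promoter that drives Cre, the hosts' age, the doses and the sampling times are not given in the sources used here. Whether the sorted cells came from graft or host is not given either. The labels do not say that each library came from a separate animal, and the p-values then speak of the spread among libraries, which may be technical.

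Library depth ran from 8.13 to 31.1 M counts in genes, lowest in WT vehicle 265, and every treated library (22.4 M or more) was deeper than every vehicle library (22.2 M or less). Reads outside annotated genes made up 5.98% to 30.4% of a library, most in KO treated 257. Of the sorting markers, Kit (20.5 to 243 CPM, counts scaled to library size), Cd34 (111 to 497 CPM) and Cd48 (184 to 900.5 CPM) were present in every library. Their levels differed between libraries. Kit was at 79.0, 73.9 and 102 CPM in WT vehicle and 159 and 167 in KO vehicle libraries. It was at 50.7, 37.7 and 20.5 CPM in WT treated and 20.5, 243 and 210 in KO treated libraries. The part of these differences in the results below was not tested. Ly6a, which encodes Sca-1, ranged from 1.11 to 433 CPM, and Slamf1 was at 0 in the 3 WT vehicle libraries and in KO treated 257. Markers of other marrow cells were also present. The 14 erythroid markers summed to 22584 to 109529 CPM in KO treated against 266 to 658 CPM in WT treated libraries, to 376 and 17714 CPM in KO vehicle, and to 64.2 to 1135 CPM in WT vehicle libraries. The 12 granulocyte markers summed to 10864 to 35320 CPM in KO treated and to 31751 to 166827 CPM in the WT treated libraries. They summed to 39701 to 104308 CPM in WT vehicle and to 40543 and 63990 CPM in KO vehicle libraries. No erythroid or granulocyte marker was at 0 in any library. Over all libraries the monocyte markers summed to 653 to 4514 CPM, the megakaryocyte markers to 5.42 to 606 CPM, the B cell markers to 28.6 to 97.1 CPM and the T and NK markers to 292 to 1705 CPM, most of it Nkg7 (279 to 1698 CPM), with up to 5 of 6 T and NK markers at 0 in a WT vehicle library.

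Entry into mitosis is driven by the kinase CDK1 bound to cyclin A2 or a B-type cyclin, once CDC25 phosphatases have removed the phosphates that hold it inactive. The chromosomes are then condensed, captured by spindle microtubules through kinetochores and held until a checkpoint is satisfied, after which the anaphase-promoting complex marks cyclins for destruction and the cell divides. Most of these genes are transcribed late in the cell cycle by complexes that contain MuvB with B-MYB or FOXM1, which act at a promoter element called the CHR, often beside CCAAT boxes bound by NF-Y. In marrow, most long-term stem cells rest, while short-term stem cells, progenitors and young erythroid precursors divide more often. In such bulk samples fewer cells in G2 and mitosis and less RNA of these genes per cell cannot be told apart.

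Averaged over the 11 libraries, the genes ranged from 18 CPM for Cdc25c, a phosphatase of CDK1, to 338 CPM for the condensin subunit Smc4, with a median of 74.4 CPM. Per kilobase of the longest protein-coding transcript the ubiquitin-conjugating enzyme Ube2c had the highest level, 145 CPM per kb, and the kinesin Kif4 the lowest, 4.87 CPM per kb. The ratio of the highest to the lowest library was 1.83 for the spindle protein Hmmr and had a median of 4.56 over the genes. It was 1231 for Cdc25b, which had a single count in WT vehicle 265.

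In some libraries most of the genes lay on the same side of their own medians, and in others they were split. In KO treated 276, 38 of the 41 genes were above their median over the libraries, whereas 17 were in KO treated 263 and 12 in KO treated 257. The vehicle libraries of WT hosts were spread as widely, with 30 genes above their median in 253, 10 in 240 and 4 in 265. KO vehicle had 22 (249) and 29 (275), and WT treated had 6 (252), 18 (262) and 19 (266). The mean log2 CPM of the genes was 5.81 ± 0.66 (SD, n = 3) in WT vehicle, 6.34 ± 0.12 (SD, n = 2) in KO vehicle, 6.07 ± 0.24 (SD, n = 3) in WT treated and 6.35 ± 0.52 (SD, n = 3) in KO treated. The WT vehicle libraries alone spanned 5.12 to 6.44, which covers the group means of the other groups.

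**Figure D1:**
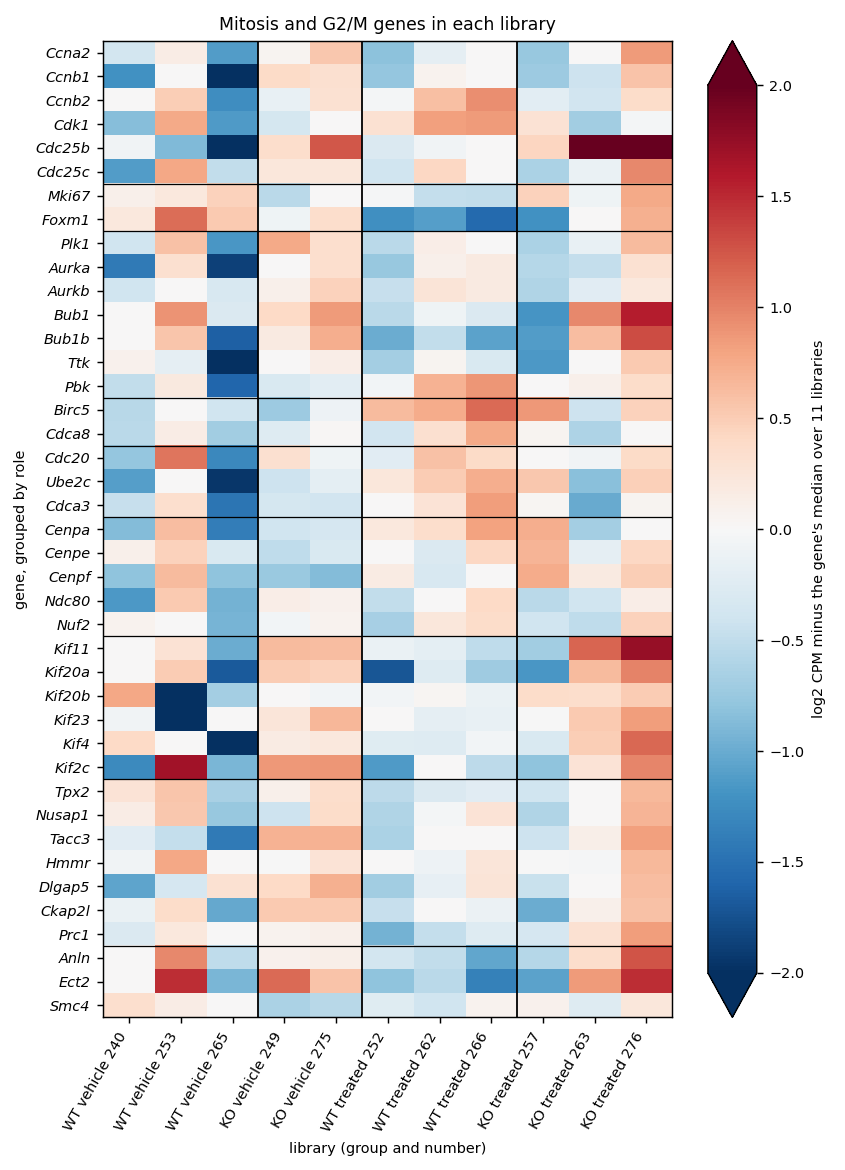
Each of the 41 genes (rows, by role) in each of the 11 libraries (columns, by group), as log2 CPM relative to the gene's own median. KO treated 276 is high in 38 genes and WT vehicle 265 in 4, and libraries of 1 group differ as much as the groups do.

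The promoters carry the late cell cycle elements named above. RefSeq (GRCm38.p6) promoter windows, from 250 bases before to 50 after the transcription start, were at hand for 32 of the 41 genes (34 windows). No window was matched for Aurkb, Ccna2, Cdc25c, Dlgap5, Foxm1, Kif20a, Pbk, Smc4 or Tpx2. The CHR motif TTTGAA, on either strand (TTCAAA on the other), was in 26 of the 34 windows (76.5%) against 17.9% of all 32851 windows in the table. Its variant TTCGAA, which reads the same on both strands, was in 3 windows (8.82% against 1.56%). The CCAAT box, on either strand (ATTGG on the other), was in 26 windows (76.5% against 37.4%), and 24 windows (70.6% against 7.52%) held both TTTGAA and CCAAT. Of all windows 19.2% held TTTGAA or the variant, against 28 of these 34 (82.4%). Matches of different motifs were counted separately, also where they overlap. Of the 37 matches to TTTGAA or the variant in these windows, 29 lay from 50 bases before the start onward. Ect2 and Prc1 have overlapping windows, and a match of theirs that lies in both is counted in each.

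The 6 stretches below are shown because they belong to genes whose values are given library by library below and show where the elements lie. Each runs 5′ to 3′ on the gene's strand from 125 bases before to 50 after the start, with capitals marking TTTGAA or its variant and CCAAT on either strand.
Mki67, chr7:135716330-135716504, minus strand: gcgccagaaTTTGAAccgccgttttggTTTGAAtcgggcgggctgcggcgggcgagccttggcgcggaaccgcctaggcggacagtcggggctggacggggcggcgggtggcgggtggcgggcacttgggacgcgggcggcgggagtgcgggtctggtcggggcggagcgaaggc
Cdk1, chr10:69352863-69353037, minus strand: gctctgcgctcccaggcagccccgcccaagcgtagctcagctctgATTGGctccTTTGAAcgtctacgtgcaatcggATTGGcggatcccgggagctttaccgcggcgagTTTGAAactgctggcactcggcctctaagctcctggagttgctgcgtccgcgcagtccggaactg
Plk1, chr7:122159310-122159484, plus strand: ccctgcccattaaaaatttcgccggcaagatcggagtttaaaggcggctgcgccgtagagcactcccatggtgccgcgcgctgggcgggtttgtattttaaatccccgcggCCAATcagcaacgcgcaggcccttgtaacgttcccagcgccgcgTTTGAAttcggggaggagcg
Cenpf, chr1:189688037-189688211, minus strand: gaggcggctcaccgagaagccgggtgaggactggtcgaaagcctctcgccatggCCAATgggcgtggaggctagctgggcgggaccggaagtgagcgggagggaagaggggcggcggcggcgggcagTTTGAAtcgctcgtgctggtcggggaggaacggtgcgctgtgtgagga
Ube2c, chr2:164769804-164769978, plus strand: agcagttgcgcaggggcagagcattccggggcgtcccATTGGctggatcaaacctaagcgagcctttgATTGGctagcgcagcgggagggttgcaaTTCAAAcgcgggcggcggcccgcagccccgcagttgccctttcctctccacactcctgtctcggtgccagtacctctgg
Cdc25b, chr2:131186823-131186997, plus strand: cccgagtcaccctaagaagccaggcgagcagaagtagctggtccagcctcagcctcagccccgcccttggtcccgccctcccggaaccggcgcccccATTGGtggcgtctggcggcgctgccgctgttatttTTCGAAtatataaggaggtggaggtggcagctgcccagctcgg
Cdk1, Plk1, Cenpf and Ube2c hold a CHR match and at least 1 CCAAT match in the stretch shown, Mki67 holds 2 CHR matches there and has its 3 CCAAT matches further upstream in the window, their first bases at -188, -166 and -141 from the start, and Cdc25b holds the variant TTCGAA with 1 CCAAT. Fold changes are given by motif without a test. In treated hosts the 26 genes with TTTGAA or the variant had a median log2 fold change, KO against WT, of 0.35, with 17 positive, and the 6 genes with a window but neither form had 0.15, with 4 positive. For treatment in the WT niche the medians were 0.18 (16 of 26 positive) and 0.36 (4 of 6 positive). A match describes letters in the window and is no measure of binding.

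Differences between groups were tested with edgeR's quasi-likelihood test over all genes. The word called marks a gene whose p, adjusted by the Benjamini-Hochberg method within a comparison, was under 0.05. The 4 pairwise comparisons share libraries with one another, since each group enters 2 of them, and the fifth comparison is the interaction of genotype and treatment. No gene of the table was called in any of the 5 (0% each time), and so none of the 41. The counts below are therefore of genes with an unadjusted p under 0.05 or of groups that do not overlap, each beside the same share of all genes tested, and no gene is described as changed.

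In treated hosts, KO against WT asks how the loss of CXCL12 in the host bears on the sorted cells under therapy. Kinesins, spindle proteins and the cytokinesis genes were higher on average in KO treated libraries, and CDK1, the ubiquitin enzymes and the passenger subunits were lower. Of the 41 genes 28 had a positive log2 fold change (53.9% of all genes did), with a median of 0.23 against 0.10 over all genes. Foxm1, Cdc25b, Kif11, Prc1, Ect2, Mki67, Bub1b and Anln had an unadjusted p under 0.05, all 8 with higher means in KO, and none did with a lower mean. That is 19.5% of the 41 genes against 10.6% of all genes (7.13% higher and 3.5% lower), and 18.1% of genes with a mean of at least 10 CPM, a level that all 41 genes exceed. The share of these genes is thus close to that of other well-expressed genes. Groups did not overlap for Cenpf, Cdc25b and Kif20b (all KO libraries above all WT) and for Cdk1 (all KO libraries below), against 9.71% and 9.56% of all genes.

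In treated hosts the number of genes with an unadjusted p under 0.05 varied with the libraries included, and the sign of the median with KO treated 276. Without WT treated 252, 262 or 266, or KO treated 263, such genes numbered 2, 2, 1 and 3. In these fits 25, 30, 30 and 31 of the 41 genes were positive, and the share of all genes with such a p was not counted. The medians were 0.16, 0.31, 0.41 and 0.32, against 0.20, 0.12, 0.08 and 0.07 over all genes, so the direction held. Each such fit has fewer libraries in a group, and how far that alone lowers the number was not tested. Without KO treated 276, 19 of the genes had a positive fold change, their median was -0.11, and 0 had an unadjusted p under 0.05 (4.38% of all genes). Without KO treated 257, edgeR called 4 genes, Kif11 (1.75, adjusted p = 0.0166), Foxm1 (1.68, adjusted p = 0.0270), Bub1 (1.59, adjusted p = 0.0321) and Prc1 (1.12, adjusted p = 0.0432), while it called 9.26% of all genes. DESeq2 called none of the 41 and 1.36% of genes, and limma voom with sample quality weights called 14 of the 41 (9 higher, 5 lower) and 26.3% of genes. The 9 were Kif11, Cdc25b, Ect2, Prc1, Bub1b, Foxm1, Bub1, Kif20a and Anln, and the 5 were Cdk1, Birc5, Cdca3, Cenpa and Ube2c. Erythroid marker sums moved with genotype in these libraries, as given above, and their part in the result was not tested. The erythroid sums were 47180 CPM in KO treated 257, 22584 CPM in 263 and 109529 CPM in 276.

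In vehicle hosts, KO against WT, the genes listed as kinesins and the mitotic kinases were higher on average in KO. The proliferation marker Mki67 and the condensin subunit Smc4 were lower, as was the kinesin Cenpe of the kinetochore list. Of the 41 genes 29 had a positive log2 fold change (48.7% of all genes), with a median of 0.29 against 0.00 over all genes. Tacc3 had an unadjusted p under 0.05 with a higher mean in KO and Smc4 with a lower one, 2 of 41 against 6.78% of all genes (4.8% higher, 1.98% lower) and 3.36% of genes at 10 CPM or more. Both KO libraries lay above all 3 WT libraries for 8 genes (Ccnb1, Cdc25b, Kif23, Kif11, Aurkb, Tacc3, Dlgap5 and Ckap2l), against 13.2% of all genes, and below them for Cenpe, Smc4 and Mki67, against 7.47%. DESeq2 called none of the 41 and 1.24% of genes, and voom called none of the 41 and 0% of genes. The median was 0.74 without WT vehicle 253 and 0.04 without WT vehicle 265, so its size depended on these libraries. It was -0.02 with a covariate for the percentage of reads outside genes, against 0.01 over all genes. With the length trend described further on removed, it was -0.15 against -0.34 over all genes. KO vehicle 275 held more erythroid marker RNA (17714 CPM) than 249 (376 CPM) and more megakaryocyte marker RNA (606 against 36.7 CPM, and 5.42 to 38.5 CPM in WT vehicle). All 14 erythroid, all 5 tested megakaryocyte and all 6 T and NK markers had positive fold changes in this comparison (12, 3 and 4 with an unadjusted p under 0.05, none called). The mean log2 CPM of the 41 genes was 6.26 in 249 and 6.43 in 275. The part of these cells' RNA in the result was not tested.

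Treatment in the WT niche had higher mean levels of CDK1 and its cyclins, the passenger subunits and the ubiquitin enzymes, and lower mean levels of Foxm1, Mki67 and the cytokinesis genes. Of the 41 genes 25 had a positive log2 fold change (52.6% of all genes), with a median of 0.11 against 0.09 over all genes. The count was 17 with a covariate for the percentage of reads outside genes (median -0.28), 13 with the length trend removed (median -0.18), 20 without WT vehicle 240 (median -0.01) and 18 without WT vehicle 265 (median -0.16). Over all genes the median was 0.18 with the covariate, -0.30 with the length trend removed, 0.33 without 240 and 0.21 without 265. Birc5, Ube2c and Pbk had an unadjusted p under 0.05 with higher means under treatment and Foxm1 with a lower one. These 4 of 41 stand against 18.2% of all genes (10.1% higher, 8.11% lower) and 25% of genes at 10 CPM or more, a smaller share of these genes than of the others. Groups did not overlap for Birc5 and Ube2c, higher (17.5% of all genes), and for Foxm1 and Mki67, lower (10.1%). DESeq2 called Foxm1 alone of the 41 (-1.98, adjusted p = 0.00484) and 6.42% of genes, and voom called none of the 41 and 0% of genes. Without KO treated 257, a library of neither group, edgeR called Foxm1 (-1.96, adjusted p = 0.0196) and 6.19% of genes. With that covariate edgeR called 5 of the 41, all lower (Foxm1, Ect2, Bub1, Anln and Bub1b), and 12.6% of genes.

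Treatment in the KO niche came with a median near 0, and the largest positive values were those of Cdc25b, Cenpf, Birc5 and Cenpe. Of the 41 genes 21 had a positive log2 fold change (56.1% of all genes), with a median of 0.03 against 0.12 over all genes. Cenpf, with a higher mean under treatment, was the only one of the 41 with an unadjusted p under 0.05, against 3.68% of all genes (2.7% higher, 0.974% lower) and 3.21% of genes at 10 CPM or more. All 3 treated libraries lay above both vehicle libraries for Cenpf, Cenpe, Smc4, Kif20b and Pbk (12.3% of all genes), and no gene of the 41 had all treated libraries below (10.1%). DESeq2 called none of the 41 and 0.138% of genes, and voom none and 0% of genes. Without KO treated 276 the median was -0.34 and 11 of the 41 genes were positive.

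The interaction asks whether the difference between KO and WT hosts was itself different under treatment. Of the 41 genes 19 had a positive interaction term (53.6% of all genes), with a median of -0.20 against 0.11. The median turned positive with the covariate for reads outside genes (0.28, 23 positive), with the length trend removed (0.12, 25 positive), without WT vehicle 265 (0.09, 24 positive) and without KO treated 257 (0.10, 21 positive) or 263 (0.06, 21 positive). The median over all genes was -0.01 with the covariate. It was 0.34 with the length trend removed, so the median of the 41 genes stayed below it there. Over all genes the median was -0.01 without WT vehicle 265, 0.06 without KO treated 257 and 0.08 without KO treated 263. The median of the 41 genes thus stayed below that of all genes without 263 too. Mki67, Foxm1 and Smc4 had a positive term with an unadjusted p under 0.05, 3 of 41 against 6.31% of all genes (3.04% higher, 3.27% lower) and 6.21% of genes at 10 CPM or more. Their adjusted edgeR p was 0.767 each. DESeq2 called none of the 41 and 0.349% of genes, and voom none and 0%.

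**Figure D2:**
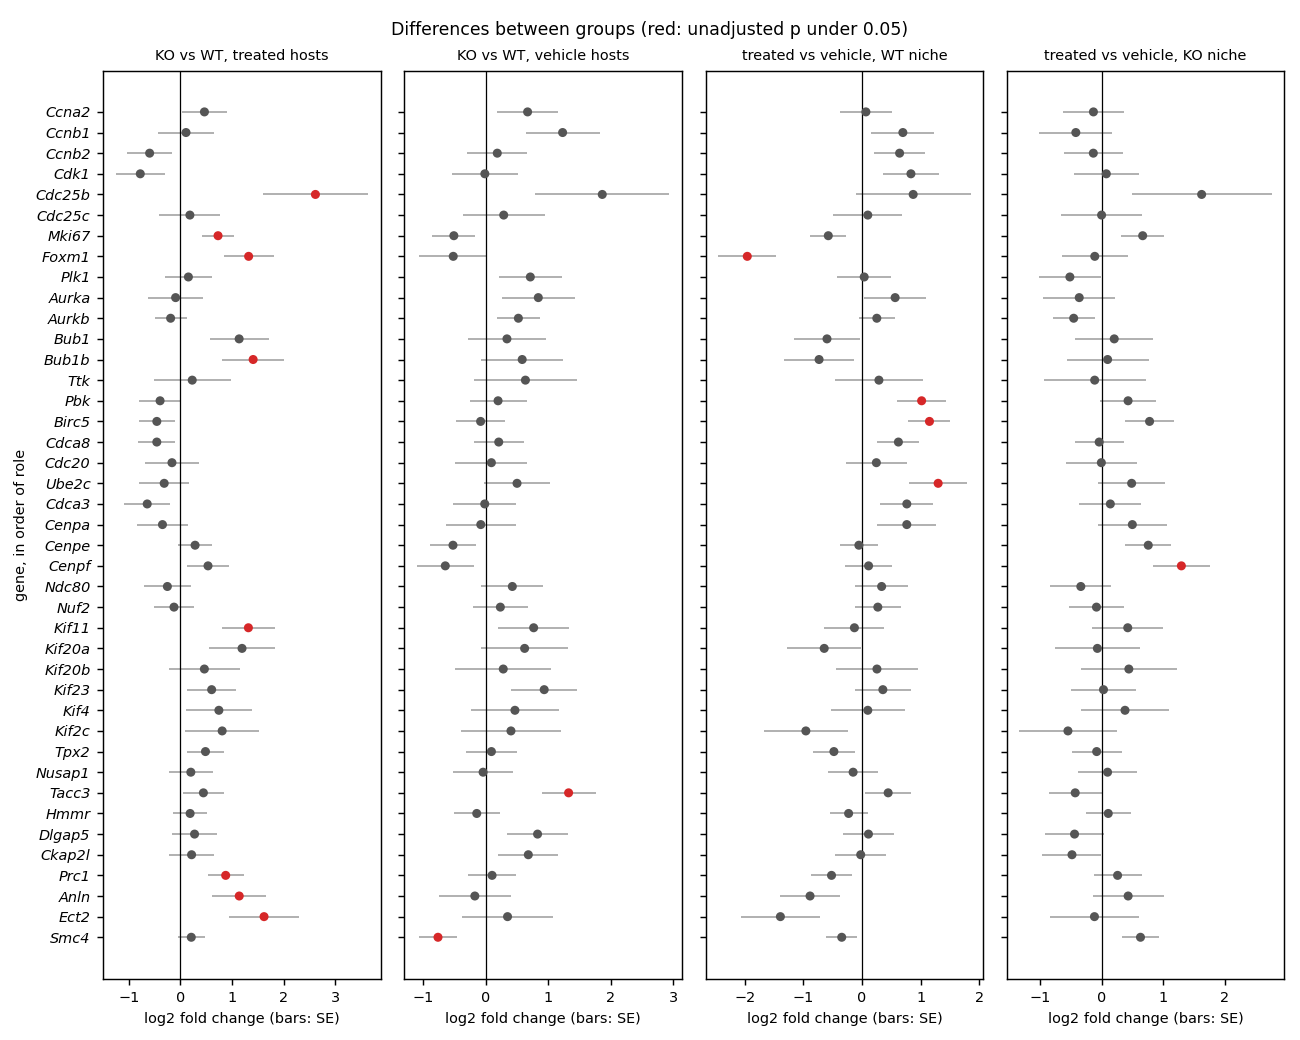
Log2 fold change with its standard error (bars) for each of the 41 genes, by role, in the 4 pairwise comparisons, with genes of unadjusted p under 0.05 in red. In treated hosts the 8 red genes all lie to the right of 0, and no gene passes the adjusted threshold in any comparison.

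Among the cyclins, CDK1 and its phosphatases, 6 of 6 genes had a positive fold change with treatment in the WT niche (median 0.67) and 2 of 6 in the KO niche (median -0.07). Cyclin B1 (Ccnb1, ENSMUSG00000041431.17), the main mitotic partner of CDK1, was at 71.7, 167 and 31.6 CPM in WT vehicle, 215 and 207 in KO vehicle, 96.8, 175 and 166 in WT treated and 100.1, 124 and 247 in KO treated libraries. Both KO vehicle libraries were above the WT vehicle libraries, which ran from 31.6 to 167 CPM, and the log2 fold change was 1.23 ± 0.59 (SE, unadjusted edgeR p of 0.0611, adjusted p = 0.729). Cdk1, the kinase itself (ENSMUSG00000019942.14), was at 103, 316 and 84.9 CPM in WT vehicle, 146 and 187 in KO vehicle, 231, 331 and 336 in WT treated and 227, 115 and 181 in KO treated libraries. The KO treated libraries were all below the WT treated ones, though 227 and 231 CPM almost touch, and the log2 fold change was -0.78 ± 0.47 (SE, unadjusted edgeR p of 0.127, adjusted p = 0.594).

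Cdc25b (ENSMUSG00000027330.17) encodes a phosphatase that starts CDK1 activation at the centrosome. It was at 12.4, 7.06 and 0.123 CPM in WT vehicle, 16.8 and 31.2 in KO vehicle, 10.7, 12.5 and 13.1 in WT treated and 17.7, 52.2 and 152 in KO treated libraries. The KO treated libraries were above the WT treated ones, and so were the KO vehicle libraries above the WT vehicle ones, while KO treated 276 was far above every other library. The log2 fold change in treated hosts was 2.61 ± 1.02 (SE, unadjusted edgeR p of 0.0259, adjusted p = 0.434). Without KO treated 276 it was 1.46 with an unadjusted edgeR p of 0.192. Cdc25b was the gene of the 41 with the largest fold change in treated hosts, and an exon of Spef1 on the other strand overlaps it, from which the unstranded reads cannot be told apart. Ccna2, Ccnb2 and Cdc25c had groups that overlapped in every comparison, with log2 fold changes between -0.60 and 0.67 over the 4 pairwise comparisons.

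Mki67 and Foxm1 had, with Smc4, the smallest unadjusted p values of the 41 genes for the interaction. Foxm1 (ENSMUSG00000001517.15), the forkhead factor that drives transcription of many G2 and mitosis genes, was at 31.6, 59.3 and 39.2 CPM in WT vehicle, 25.6 and 34.8 in KO vehicle, 11.6, 12.7 and 9.19 in WT treated and 11.7, 27.2 and 44.6 in KO treated libraries. All 3 WT treated libraries were below all 3 WT vehicle libraries, KO treated 257 lay at the WT treated level, and 263 and 276 lay with the vehicle libraries. Its mean was 11.1 ± 1.78 CPM (SD, n = 3) in WT treated and 43.3 ± 14.3 CPM (SD, n = 3) in WT vehicle libraries, a log2 fold change of -1.96 ± 0.50 (SE, unadjusted edgeR p of 0.00208, adjusted p = 0.172). Its p was under 0.05, unadjusted, in all 22 alternatives tried, and the adjusted p ranged from 0.00484 to 0.575 over them. In treated hosts KO against WT gave 1.32 ± 0.49 (SE, unadjusted edgeR p of 0.0195, adjusted p = 0.434), and the interaction gave 1.84 ± 0.73 (SE, unadjusted edgeR p of 0.028, adjusted p = 0.767).

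The low Foxm1 of WT treated libraries stood beside a median over the 41 genes that changed sign with the setting in that comparison, 0.11 as tested, -0.28 with the covariate and -0.18 with the length trend removed. Over all genes the median was 0.09, 0.18 and -0.30 in the same order. An exon of Tex52 overlaps Foxm1 on the same strand.

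Mki67 (ENSMUSG00000031004.9), which encodes the proliferation antigen Ki-67 that coats mitotic chromosomes, was at 198, 214 and 257 CPM in WT vehicle, 127 and 186 in KO vehicle, 183, 134 and 132 in WT treated and 255, 175 and 314 in KO treated libraries. WT treated libraries were all below WT vehicle ones, KO vehicle ones were too, and KO treated 263 lay inside the WT treated range. The log2 fold change in treated hosts was 0.73 ± 0.31 (SE, unadjusted edgeR p of 0.0352, adjusted p = 0.449), and the interaction was 1.24 ± 0.46 (SE, unadjusted edgeR p of 0.0203, adjusted p = 0.767). After each library's trend with transcript length was removed, the value in treated hosts was 0.20 with an unadjusted p of 0.560.

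**Figure D3:**
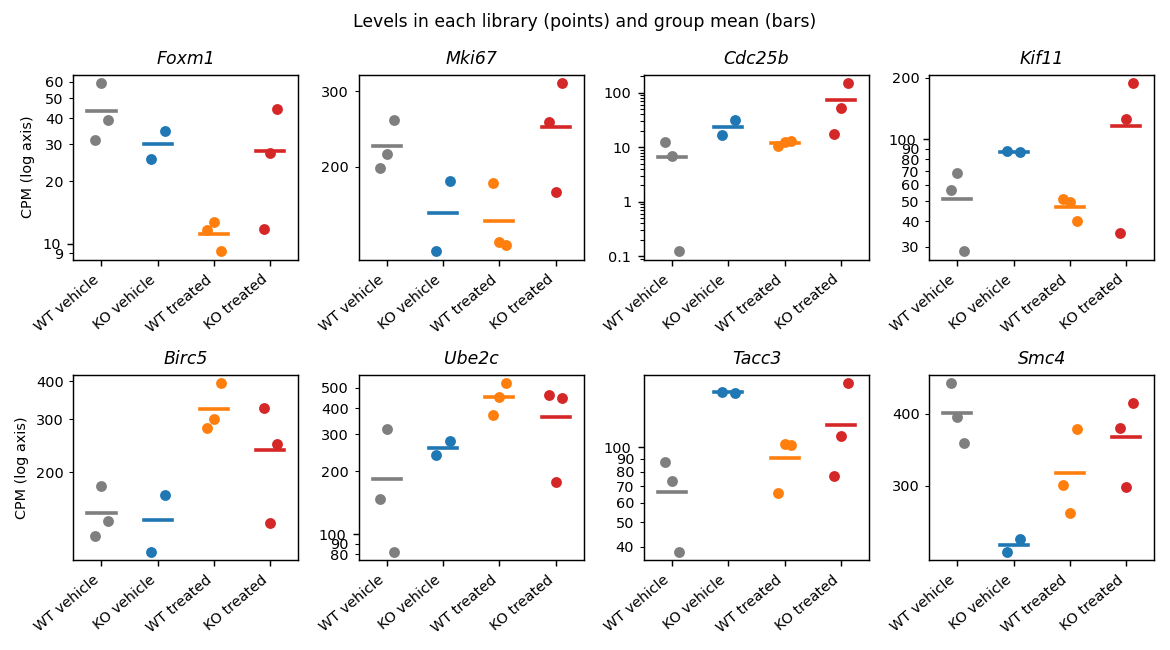
CPM (log axis) of 8 of the genes in each library (points) by group, with the group mean as a bar. Foxm1 lies at 9.19 to 12.7 CPM in the WT treated group and at 31.6 to 59.3 CPM in the WT vehicle group, and KO treated libraries are spread from 11.7 to 44.6 CPM.

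The 7 mitotic and checkpoint kinases were all higher on average in KO than in WT vehicle hosts (median 0.58), but only Aurkb, the kinase of the chromosomal passenger complex, had groups that did not overlap. Plk1 (ENSMUSG00000030867.8), which acts on centrosomes, kinetochores and cytokinesis, was at 56.8, 113 and 33.4 CPM in WT vehicle, 127 and 94.4 in KO vehicle, 51.3, 82.0 and 74.8 in WT treated and 48.2, 67.2 and 116 in KO treated libraries. Its groups overlapped in every comparison, and its log2 fold change was 0.71 in vehicle and 0.15 in treated hosts. Bub1b, which encodes the checkpoint protein BUBR1, was at 71.5, 105 and 22.9 CPM in WT vehicle, 80.6 and 119 in KO vehicle, 35.8, 50.6 and 33.9 in WT treated and 33.1, 109.5 and 176 in KO treated libraries. KO treated 263 and 276 were above all WT treated libraries and 257 was below them, with a log2 fold change of 1.41 ± 0.61 (SE, unadjusted edgeR p of 0.0395, adjusted p = 0.454).

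Bub1, a kinase that works with BUBR1 at kinetochores, was at 34.8, 65.2 and 28.6 CPM in WT vehicle, 45.6 and 62.7 in KO vehicle, 23.9, 32.7 and 28.3 in WT treated and 15.3, 67.7 and 104 in KO treated libraries. It had the same order of KO treated libraries, with 257 the lowest of all 11, and a log2 fold change of 1.14 ± 0.57 (SE, unadjusted edgeR p of 0.0705, adjusted p = 0.509). Pbk, a mitotic kinase linked to proliferation, was at 74.0, 118 and 34.5 CPM in WT vehicle, 83.7 and 89.4 in KO vehicle, 100.2, 167 and 191 in WT treated and 104, 111 and 134 in KO treated libraries. Only 1 WT vehicle library (253) reached into the WT treated range, and treatment in the WT niche gave 1.01 ± 0.41 (SE, unadjusted edgeR p of 0.0309, adjusted p = 0.236). Pbk has one of the shorter transcripts (1720 bases), and its value was 0.25 with an unadjusted edgeR p of 0.60 after removal of the length trend. That step also moved the median over all genes in this comparison, from 0.09 to -0.30, so part of the drop is shared by genes of any length. Aurka and Ttk had groups that overlapped in every comparison.

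The passenger complex directs Aurora B to centromeres and the midzone, and both of its subunits in the set had higher means under treatment in WT hosts. Birc5 (ENSMUSG00000017716.16), which encodes survivin, was at 123, 180.4 and 137 CPM in WT vehicle, 109 and 168 in KO vehicle, 280.0, 301 and 395 in WT treated and 328, 135 and 247 in KO treated libraries. All WT treated libraries were above all WT vehicle libraries, and the means were 325 ± 61.0 CPM (SD, n = 3) and 147 ± 30.1 CPM (SD, n = 3). The log2 fold change was 1.15 ± 0.36 (SE, unadjusted edgeR p of 0.00796, adjusted p = 0.177). Its unadjusted p stayed under 0.05 in all 22 alternatives, with adjusted p from 0.0501 to 0.575. Cdca8, which encodes borealin, was at 116, 186 and 103 CPM in WT vehicle, 140.4 and 171 in KO vehicle, 129, 209 and 284 in WT treated and 175, 109.5 and 168 in KO treated libraries. Its groups overlapped, and the same comparison gave 0.62 ± 0.36 (SE, unadjusted edgeR p of 0.112, adjusted p = 0.376).

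The 3 genes of ubiquitin ligation had positive fold changes with treatment in the WT niche and negative ones for KO against WT in treated hosts (median -0.32). Ube2c (ENSMUSG00000001403.14), the enzyme that hands ubiquitin to the anaphase-promoting complex, was at 148, 319 and 82.5 CPM in WT vehicle, 238 and 279 in KO vehicle, 373, 451 and 525 in WT treated and 461, 178 and 446 in KO treated libraries. Every WT treated library was above every WT vehicle library, KO treated 263 was below both KO vehicle libraries, and 257 and 276 were above them. Treatment in the WT niche gave 1.30 ± 0.49 (SE, unadjusted edgeR p of 0.0217, adjusted p = 0.212), and 0.74 with an unadjusted edgeR p of 0.193 after removal of the length trend. The median over all genes was 0.09 before and -0.30 after that removal. Cdca3, which helps to degrade the mitosis inhibitor WEE1, was at 112, 195 and 55.7 CPM in WT vehicle, 121 and 118 in KO vehicle, 154, 186 and 276 in WT treated and 158, 76.4 and 159.8 in KO treated libraries. Cdc20, which activates the anaphase-promoting complex, was at 83.0, 297 and 58.3 CPM in WT vehicle, 177 and 134 in KO vehicle, 121, 213 and 185 in WT treated and 142, 136 and 186 in KO treated libraries. Both had groups that overlapped in every comparison, and the smallest unadjusted p of the pair was 0.117, for Cdca3 with treatment in the WT niche.

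Among the centromere and kinetochore genes, Cenpf, a large protein of the outer kinetochore, was at 38.6, 105 and 38.8 CPM in WT vehicle, 40.5 and 37.2 in KO vehicle, 75.4, 54.3 and 67.6 in WT treated and 114, 76.5 and 95.5 in KO treated libraries. KO treated libraries were above both KO vehicle and all WT treated libraries, while WT vehicle 253 was as high as they were. Treatment in the KO niche gave 1.29 ± 0.46 (SE, unadjusted edgeR p of 0.0169, adjusted p = 1), and KO against WT in treated hosts gave 0.53 ± 0.40 (SE) with an unadjusted p of 0.205. Cenpe, the kinesin that brings chromosomes to the spindle equator, was at 73.3, 94.5 and 55.5 CPM in WT vehicle, 48.2 and 55.2 in KO vehicle, 68.4, 55.8 and 90.9 in WT treated and 110.0, 60.4 and 91.3 in KO treated libraries. Its KO vehicle libraries were the lowest of the 11, and treatment in the KO niche gave 0.75 ± 0.38 (SE, unadjusted edgeR p of 0.0687, adjusted p = 1). Cenpa, the histone H3 variant that marks centromeres, was at 86.4, 242 and 60.3 CPM in WT vehicle, 119.9 and 125 in KO vehicle, 182, 202 and 275 in WT treated and 261, 99.1 and 158 in KO treated libraries. Its groups overlapped in every comparison, as did those of Ndc80 and Nuf2, which join kinetochores to microtubules.

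All 6 genes listed as kinesins had positive fold changes for KO against WT both in treated hosts (median 0.78) and in vehicle hosts (median 0.54), without a call. The kinesin Cenpe, grouped here with the kinetochore genes, went the other way in vehicle hosts, with means of 51.7 CPM in KO and 74.5 CPM in WT. Kif11 (ENSMUSG00000012443.5), the motor that pushes spindle poles apart, was at 56.5, 68.9 and 28.4 CPM in WT vehicle, 87.5 and 86.9 in KO vehicle, 51.3, 49.5 and 39.8 in WT treated and 34.9, 126 and 189 in KO treated libraries. KO treated 263 and 276 had at least 126 CPM, more than any other library, and 257 lay below all 3 WT treated libraries. The log2 fold change in treated hosts was 1.32 ± 0.52 (SE, unadjusted edgeR p of 0.0268, adjusted p = 0.434). Kif20a, which works in cytokinesis, was at 34.1, 48.3 and 10.6 CPM in WT vehicle, 48.3 and 47.1 in KO vehicle, 10.3, 28.3 and 20.9 in WT treated and 15.2, 52.6 and 68.0 in KO treated libraries. It had the same order of KO treated libraries and a log2 fold change of 1.19 ± 0.63 (SE, unadjusted edgeR p of 0.0853, adjusted p = 0.538). Kif23, a motor of the central spindle, was at 53.0, 12.1 and 56.2 CPM in WT vehicle, 65.6 and 88.4 in KO vehicle, 55.6, 49.0 and 50.1 in WT treated and 55.1, 80.3 and 99.7 in KO treated libraries. Both KO vehicle libraries were above all WT vehicle libraries, of which 253 was lowest at 12.1 CPM, and the log2 fold change was 0.93 ± 0.53 (SE, unadjusted edgeR p of 0.105, adjusted p = 0.763). Kif20b likewise was at 4.02 CPM in WT vehicle 253 and at 29.1 to 79.7 CPM in all other libraries. Kif2c and Kif4 had groups that overlapped in every comparison.

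The 7 spindle proteins had positive fold changes for KO against WT in treated hosts (median 0.27), and 5 of the 7 had negative ones with treatment in the WT niche. Tacc3 (ENSMUSG00000037313.17), which stabilises kinetochore microtubules, was at 87.8, 73.3 and 38.2 CPM in WT vehicle, 167 and 166 in KO vehicle, 65.9, 103 and 102 in WT treated and 76.5, 112 and 181 in KO treated libraries. The KO vehicle libraries were nearly equal and well above the highest WT vehicle library. The means were 166 ± 0.719 CPM (SD, n = 2) and 66.4 ± 25.5 CPM (SD, n = 3), with a log2 fold change of 1.32 ± 0.43 (SE, unadjusted edgeR p of 0.0102, adjusted p = 0.667). An exon of Tmem129 on the other strand overlaps Tacc3. Prc1, which bundles microtubules of the central spindle, was at 43.4, 61.8 and 53.2 CPM in WT vehicle, 55.9 and 57.2 in KO vehicle, 27.5, 38.2 and 44.7 in WT treated and 42.3, 65.6 and 94.5 in KO treated libraries. KO treated 257 lay inside the WT treated range and the other KO treated libraries above it, with a log2 fold change of 0.88 ± 0.35 (SE, unadjusted edgeR p of 0.0279, adjusted p = 0.434). Dlgap5, which binds spindle microtubules, was at 16.2, 26.7 and 41.4 CPM in WT vehicle, 44.3 and 55.2 in KO vehicle, 20.6, 30.0 and 40.1 in WT treated and 24.6, 33.6 and 51.3 in KO treated libraries. Both KO vehicle libraries were above the WT vehicle ones, of which 265 was close at 41.4 CPM, and the log2 fold change was 0.83 ± 0.48 (SE, unadjusted edgeR p of 0.112, adjusted p = 0.771). Hmmr varied least of the 41 genes, from 56.7 to 104 CPM.

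The cytokinesis genes Anln and Ect2 had the same order of KO treated libraries as Kif11. Ect2, which activates RHOA at the cleavage furrow, was at 36.6, 102 and 19.3 CPM in WT vehicle, 80.0 and 54.3 in KO vehicle, 20.9, 25.1 and 14.4 in WT treated and 17.3, 66.1 and 102 in KO treated libraries. Its log2 fold change in treated hosts was 1.62 ± 0.67 (SE, unadjusted edgeR p of 0.0335, adjusted p = 0.446), and with treatment in the WT niche it was -1.39 ± 0.67 (SE, unadjusted edgeR p of 0.0597, adjusted p = 0.288). Anln, the anillin scaffold of the contractile ring, was at 26.4, 51.3 and 18.5 CPM in WT vehicle, 28.1 and 28.8 in KO vehicle, 20.4, 18.8 and 12.8 in WT treated and 17.7, 33.7 and 63.2 in KO treated libraries. Its log2 fold change in treated hosts was 1.14 ± 0.52 (SE, unadjusted edgeR p of 0.0498, adjusted p = 0.47). KO treated 257 lay among the WT treated libraries for both genes, and 263 and 276 lay above them.

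Smc4 (ENSMUSG00000034349.15), the ATPase shared by both condensins, was at 452, 395 and 357 CPM in WT vehicle, 230.1 and 242 in KO vehicle, 301, 269 and 376 in WT treated and 378, 298 and 418 in KO treated libraries. It went the other way from most genes of the set in vehicle hosts, since both KO libraries were the lowest of all 11. The means were 236 ± 8.53 CPM (SD, n = 2) in KO and 401 ± 48.2 CPM (SD, n = 3) in WT vehicle libraries, with a log2 fold change of -0.77 ± 0.31 (SE, unadjusted edgeR p of 0.0277, adjusted p = 0.729). Its interaction term was 0.97 ± 0.40 (SE, unadjusted edgeR p of 0.0329, adjusted p = 0.767).

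Fold changes of these genes varied with transcript length, which the choice of genes did not use. The longest protein-coding transcript ran from 1466 bases (Cenpa) to 11130 bases (Cenpf), with a median of 3137. For KO against WT in treated hosts, Spearman's rho between log2 fold change and length was 0.63 over the 41 genes and 0.46 over 16583 genes with a length. The 20 shorter genes had a median of -0.11 with 9 positive, and the 21 longer ones a median of 0.53 with 19 positive. With treatment in the WT niche rho was -0.53 (-0.33 over all genes), and the medians were 0.39 (18 of 20 positive) and -0.15 (7 of 21 positive). The genes that share a length also share libraries, so these are descriptions across genes, which are not independent replicates.

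The WT treated libraries and KO treated 257 stood apart in this respect over the whole table. Spearman's rho of log2 CPM relative to the gene's mean with length, over all genes, was -0.29, -0.40 and -0.33 in WT treated and -0.22 in KO treated 257, and positive in the other 7 libraries (0.02 to 0.36). Over the 41 genes, relative to each gene's median, it was 0.06, -0.72 and -0.50 in WT treated and 0.03 in KO treated 257. It ran from -0.07 to 0.59 in the other 7 libraries. With each library's trend removed, rho in treated hosts was 0.03 over the 41 genes. The medians were then 0.06 for the shorter genes (12 of 20 positive) and 0.01 for the longer ones (11 of 21 positive). Only Cdc25b, of the 8 genes with an unadjusted p under 0.05, kept one, against 4.72% of all genes. Its value was then 2.21, with an unadjusted edgeR p of 0.0377. Foxm1 with treatment in the WT niche was -1.96 with an unadjusted edgeR p of 0.00158 after the same step. Birc5 was 1.11 with an unadjusted edgeR p of 0.0353. The median over all genes with treatment in the WT niche was then -0.30, against 0.09 as counted. In the comparisons without the WT treated group, rho over the 41 genes was 0.38 before and 0.39 after removal for treatment in the KO niche. For KO against WT in vehicle hosts it was -0.28 and -0.35. Over all genes rho before removal had the opposite sign in both, -0.10 in the KO niche and 0.11 in vehicle hosts. For the interaction rho was 0.68 before and 0.34 after, against 0.25 and 0.04 over all genes. Whether the trend arises in the cells or in the libraries was not tested.

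**Figure D4:**
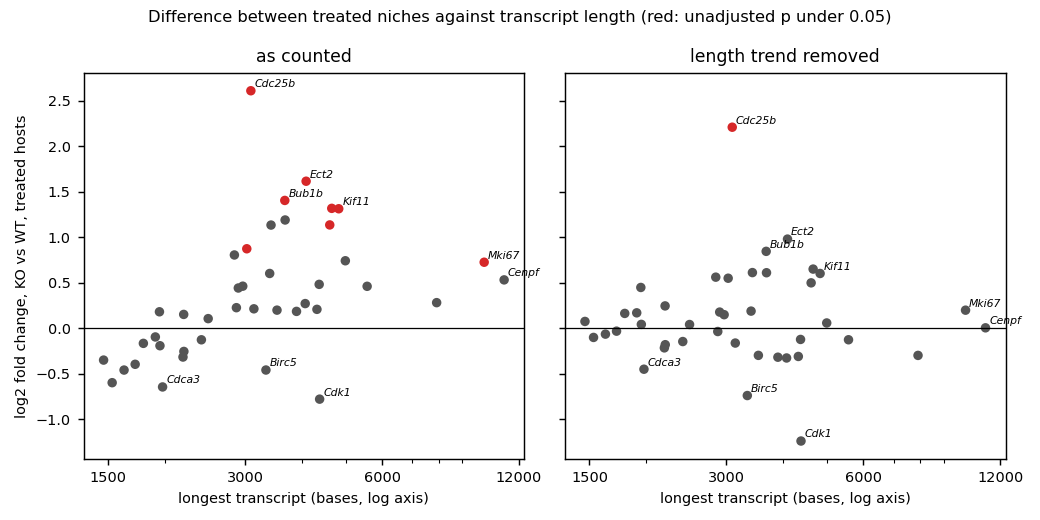
Log2 fold change, KO against WT in treated hosts, against the length of the longest protein-coding transcript (bases, log axis) for the 41 genes, as counted (left) and after removal of each library's length trend (right), with genes of unadjusted p under 0.05 in red. The upward slope on the left (rho 0.63, 8 red genes) is absent on the right (rho 0.03, 1 red gene, Cdc25b).

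Other genes of mitosis, 94 that were tested outside the 41, were counted in the same way, and the shares of all genes given above for each comparison apply here too. For KO against WT in treated hosts 63 of 94 had a positive fold change (median 0.35), 13 had an unadjusted p under 0.05 with a higher mean and 2 with a lower one. That is 16% of the 94 against 10.6% of all genes and 18.1% of genes at 10 CPM or more, with 53.9% of all genes positive. With treatment in the WT niche 40 of 94 were positive (median -0.12, 52.6% of all genes positive), with 11 higher and 8 lower. That is 20.2% against 18.2% of all genes and 25% of genes at 10 CPM or more. The vehicle comparison had 59 positive (median 0.13), 3 higher and 1 lower (6.78% of all genes and 3.36% at 10 CPM or more had such a p). Treatment in the KO niche had 56 positive (median 0.10), 1 higher and 0 lower (3.68% of all genes and 3.21% at 10 CPM or more). None was called.

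In treated hosts 19 of 24 genes of spindle, motors and cytokinesis were positive (median 0.48, 6 with an unadjusted p under 0.05, all higher), as were 12 of 14 of condensin and cohesin (median 0.35, 3 higher), beside 53.9% of all genes positive and 7.13% higher. Of the other lists, 11 of 14 G2/M regulators (median 0.48, 0 with an unadjusted p under 0.05), 9 of 12 genes of the anaphase-promoting complex (median 0.46, 2 higher) and 12 of 30 checkpoint and kinetochore genes (median -0.12, 2 higher and 2 lower) were positive. Spag5, a spindle protein, gave 1.46 ± 0.43 (SE, unadjusted edgeR p of 0.00554, adjusted p = 0.383), with means of 43.2 ± 17.1 CPM (SD, n = 3) in KO and 15.7 ± 0.354 CPM (SD, n = 3) in WT treated libraries. Ncapd2, a condensin subunit, gave 1.51 ± 0.47 (SE, unadjusted edgeR p of 0.00768, adjusted p = 0.405), and Anapc1, the largest subunit of the anaphase-promoting complex, 2.09 ± 0.63 (SE, unadjusted edgeR p of 0.0067, adjusted p = 0.401). Anapc1 was at 47.8, 125 and 73.6 CPM in WT vehicle, 119 and 97.4 in KO vehicle, 40.9, 37.3 and 15.2 in WT treated and 30.6, 167 and 200.3 in KO treated libraries, in the order of libraries seen for Kif11. Stag2, a cohesin subunit, gave 1.41 ± 0.56 (SE), and Mad1l1, a checkpoint protein, 1.09 ± 0.40 (SE).

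With treatment in the WT niche 24 of 30 further checkpoint and kinetochore genes were positive (median 0.61, 6 with an unadjusted p under 0.05 higher and 2 lower), against 5 of 24 of spindle, motors and cytokinesis (median -0.34, 1 higher and 3 lower), beside 52.6% of all genes positive, 10.1% higher and 8.11% lower. Of the other lists, 4 of 14 G2/M regulators (median -0.32, 2 higher), 4 of 12 genes of the anaphase-promoting complex (median -0.20, 2 higher and 2 lower) and 3 of 14 of condensin and cohesin (median -0.38, 1 lower) were positive. Spc24, a subunit of the NDC80 complex, was at 79.7, 75.8 and 63.9 CPM in WT vehicle, 109.8 and 119 in KO vehicle, 179, 216 and 277 in WT treated and 212, 88.6 and 97.2 in KO treated libraries. All WT treated libraries were above all WT vehicle libraries, with a log2 fold change of 1.61 ± 0.36 (SE, unadjusted edgeR p of 0.000851, adjusted p = 0.172). Cks1b and Cks2, small partners of CDKs, gave 1.57 ± 0.50 (SE) and 1.56 ± 0.45 (SE), with groups that did not overlap and adjusted edgeR p of 0.179 and 0.173. Fbxo5, an inhibitor of the anaphase-promoting complex, gave 0.96 ± 0.33 (SE), and Shcbp1, a midbody protein, 1.38 ± 0.43 (SE). Mad1l1 had a lower mean under treatment, at -1.23 ± 0.40 (SE), as did Anapc1 at -1.40 ± 0.62 (SE), Ncapd2 at -1.12 ± 0.46 (SE) and Spag5 at -1.12 ± 0.43 (SE). These 4 had groups that did not overlap and unadjusted p under 0.05. The interaction term of Spc24 was -1.40 ± 0.53 (SE, unadjusted edgeR p of 0.0214, adjusted p = 0.767).

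The 37 S phase genes act before mitosis in the cycle. Their mean log2 CPM was 6.13 to 6.48 in WT vehicle, 6.60 and 6.64 in KO vehicle, 5.99 to 6.35 in WT treated and 6.21 to 6.81 in KO treated libraries. KO vehicle lay above WT vehicle without overlap on this scale, and KO treated 276 had the highest value of the 11 in both sets. Of the 37, 22 were positive for KO against WT in treated hosts (median 0.39, 9 with an unadjusted p under 0.05 higher and 2 lower, against 53.9%, 7.13% and 3.5% of all genes) and 30 in vehicle hosts (median 0.27, 0 higher and 1 lower, against 48.7%, 4.8% and 1.98%). The 15 genes of quiescence and CDK inhibition were positive in 11 of 15 in treated hosts (median 0.28, 2 higher and 0 lower), beside the same shares of all genes. In treated hosts 29.7% of the S phase genes had such a p, against 10.6% of all genes and 18.1% of genes at 10 CPM or more. In vehicle hosts 2.7% of them did, against 6.78% and 3.36%. Whether single libraries or transcript length bear on the values of these lists was not tested.

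**Figure D5:**
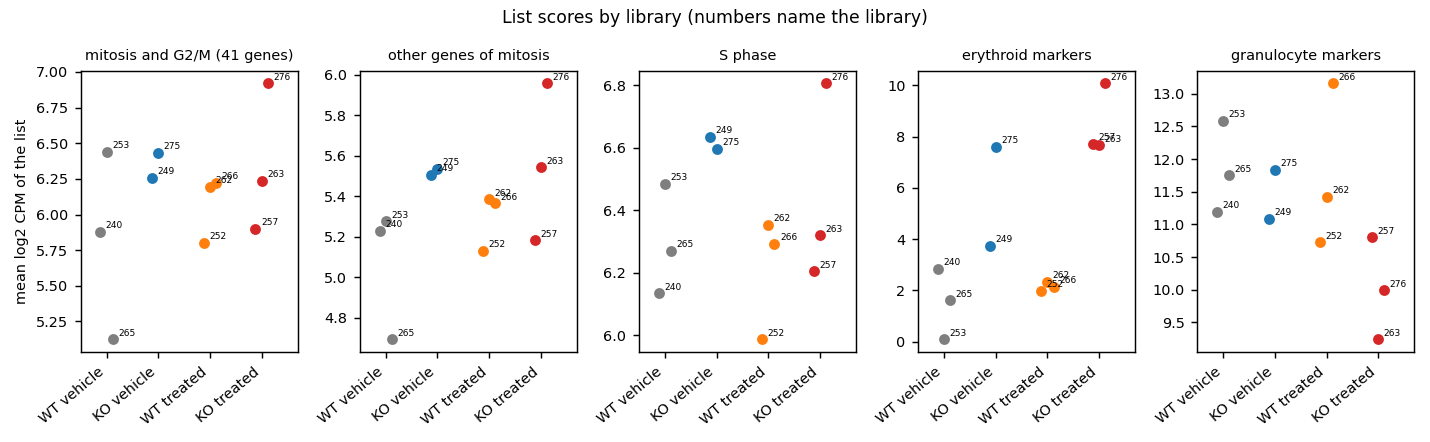
Mean log2 CPM of the 41 genes, the other genes of mitosis, the S phase genes and the erythroid and granulocyte markers (one panel each) in every library, by group, with points labelled by library number. For the 41 genes KO treated 257, 263 and 276 lie at 5.90, 6.24 and 6.92, and 276 is highest in all panels but the granulocyte one.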

How the data were processed

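RNA was amplified and made into libraries with a low-input SMARTer kit and Nextera XT, per the labels' protocols, and these kits do not keep the strand. Per the submitters' processing notes, the tools were STAR 2.7.9a, Trim Galore 0.6.7, bcl2fastq, DESeq2 and HTSeq, whose version reads 0.6.7, and the build was GRCm39. The deposited values are raw counts of reads, 1 whole number per Ensembl gene and library, not normalized by the authors, for 11 libraries. Another 5 summary lines were left out. The annotation release and the strand setting are not given in the sources used here. Reads of overlapping genes may be miscounted.

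IDs were paired with symbols for 52093 of 53700 genes and with transcript lengths through a GENCODE mouse annotation of build GRCm38, used for names, lengths and overlaps only. Testing used R 4.3.3 and edgeR 4.0.16. Genes passed filterByExpr (16639), libraries were scaled with TMM, and 1 quasi-likelihood model with the robust option held all 4 groups, with a biological coefficient of variation of 0.783. SE was taken from the test, as the size of the log2 fold change over the root of F. CPM uses TMM-scaled library sizes, and list means are of log2 CPM. Depth was 8.13 to 31.1 M counts, and counts carry no molecular identifiers.

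The 41 genes, the other lists and the alternatives were chosen with earlier results of these data known. Libraries are given one by one for the 3 genes of each role class with the smallest p in any comparison and for Mki67, Foxm1, Ccnb1, Cdk1 and Plk1. Outside the 41, the 2 genes of each of 5 lists with the smallest p are named. The lists cover G2/M regulators, the anaphase-promoting complex, checkpoint and kinetochore, condensin and cohesin, spindle with motors and cytokinesis, S phase, quiescence, and markers of erythroid, granulocyte, monocyte, megakaryocyte, B, T and NK cells and of sorted stem cells.

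Alternatives were DESeq2 size factors, upper-quartile scaling, no filter or a mean of 10 CPM, the DESeq2 1.42.0 Wald test, limma 3.58.1 voom with quality weights, a fit of just the groups compared, a fit without the robust option, each library left out, 253 and 265 both left out, a covariate for the percentage of reads outside genes, and removal of each library's trend with transcript length (lowess, span 0.3). Tested on simulated data of 16639 genes, the comparison of KO and WT in treated hosts found 40% of 4-fold and 79% of 16-fold differences with 4 false calls. For KO against WT in vehicle hosts it found 14% and 77% with 1 false call. For treatment it found 27% and 81% with 2 false calls in the WT niche, and 10% and 74% with 1 in the KO niche. The simulated counts were drawn independently around a mean common to all libraries, scaled to library size. They held no trend with length, no shift in cell types and no library that stood apart.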

Additional observations from a re-analysis of the deposited data

How the results depend on the processing

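No paired analysis was possible because the library titles carry no number shared between groups. Counts of calls over all genes, 0 in each comparison with edgeR, moved with tool and filter. For KO against WT in treated hosts they were 43 with no filter, 226 with DESeq2 and 4375 with voom, and 0 to 1513 with 1 library left out (1513 without KO treated 257). For KO against WT in vehicle hosts they were 11 with no filter and 206 with DESeq2, and 0 to 85 with 1 library left out (85 without WT vehicle 240). For treatment in the WT niche they were 215 with no filter, 1069 with DESeq2 and 2100 with the covariate, and 0 to 1012 with 1 library left out (190 without WT vehicle 240, 1012 without KO treated 257). For treatment in the KO niche DESeq2 called 23 genes, and for the interaction 58, where leaving out 1 library gave 0 to 1 (1 without WT vehicle 240). Of the 41 genes, voom called 14 in treated hosts and leaving out 1 library gave 0 to 4. For treatment in the WT niche DESeq2 called 1 and the covariate 5, and leaving out 1 library gave 0 to 1. The cause of these moves was not tested.

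The median log2 fold change of the 41 genes changed sign under some settings. With 1 library left out it ran from -0.11 to 0.47 in treated hosts, 0.04 to 0.74 in vehicle hosts, -0.16 to 0.39 with treatment in the WT niche, -0.34 to 0.22 in the KO niche and -0.52 to 0.10 for the interaction. Over the other alternatives it ran from 0.04 to 0.31, -0.15 to 0.60, -0.28 to 0.38, -0.06 to 0.07 and -0.56 to 0.28 in the same order, the last 0.28 with the covariate. Removal of the length trend moved the median of all genes to -0.34 in vehicle hosts, -0.30 with treatment in the WT niche and 0.34 for the interaction. The 18 pairs of gene and comparison with an unadjusted p under 0.05 kept their direction in the alternatives run (21 or 22 each). These pairs were chosen by their p in the same libraries that the alternatives refit. Their kept direction is thus no separate support, nor are the counts of alternatives given above for Foxm1 and Birc5. Groups of 2 or 3 libraries limit what could be detected.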

Other observations

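WT vehicle 253 had 30 of the 41 genes above their medians, yet it was the lowest of the 11 libraries for the kinesins Kif20b (4.02 CPM) and Kif23 (12.1 CPM), and its Kif2c was the highest (109.8 CPM).

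Exons of 14 of the 41 genes overlap another annotated gene, 13 of them on the opposite strand, among them Cdc25b (Spef1), Ube2c (Tnnc2), Prc1 (Rccd1) and Tacc3 (Tmem129). Processed copies are listed for Ccnb1, Ccnb2 and Kif4, and their highest counts in a library were 36, 28 and 0.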
